A study of Homo sapiens with 4 samples.

Results

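The genes that copy the chromosomes were followed in ribosome footprints of Hermes 4B cells, an immortalised line of human skin melanocytes. They were picked by name as 31 genes whose proteins license origins, unwind and copy DNA, supply nucleotides or put chromatin back, out of 14355 gene names in the deposited tables. All 31 were found, and all 31 passed the filter on low counts among 10469 tested genes. Transfected cells had received either an siRNA against CDH3-AS1, an antisense noncoding RNA of the cadherin gene CDH3, or a control siRNA. Both siRNAs were used at 25 to 50 nM in the same wild-type line, so the groups differ in the siRNA alone by label. Ribosomes were held in place with 100 µg/mL cycloheximide before RNase digestion left the fragments they protect. Batch 1 and batch 2 each held 1 library of either siRNA, and nothing says that the 2 libraries of an siRNA came from separate cultures. P-values therefore cover the spread of these 4 samples alone, which may be technical, and an exact permutation test of 2 libraries against 2 cannot give a two-sided p below 0.333. The siRNA's own target was not analysed here, so the knockdown was not checked. No RNA-seq was analysed here either, so a value is the ribosome density on a gene and not how well each mRNA was translated.

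DNA replication starts with licensing, when the origin recognition complex (ORC), CDC6 and CDT1 load a ring of 6 related proteins, MCM2 to MCM7, onto DNA. In S phase CDC45 and the GINS complex join the ring and turn it into the moving helicase, and polymerases then copy both strands behind it, held in place by the sliding clamp PCNA. Since each ring holds MCM2 to MCM7 in equal number, the subunits can be set beside one another, and many of these genes are textbook targets of E2F transcription factors, which switch them on as cells leave quiescence.

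Stretches before the starts of MCM6, MCM3 and MCM7 are shown because the results turn on MCM6 and its partners in the ring, and in these genes E2F-type letters lie before the start. MCM2 has none wholly before its start and is not shown. They are RefSeq sequences of GRCh38.p14, all on the minus strand and printed 5′ to 3′ along the gene, and the MCM7 stretch precedes the first of its 3 annotated starts. Capitals mark the E2F-type letters TTTCCCGC, TTTGGCGC or TTTCGCGC on either strand.
MCM6, chr2:135876502-135876615: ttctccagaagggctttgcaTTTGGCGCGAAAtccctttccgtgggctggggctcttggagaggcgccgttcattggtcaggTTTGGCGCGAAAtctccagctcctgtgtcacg
MCM3, chr6:52284889-52284936: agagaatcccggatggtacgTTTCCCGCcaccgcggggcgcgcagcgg
MCM7, chr7:100101398-100101604: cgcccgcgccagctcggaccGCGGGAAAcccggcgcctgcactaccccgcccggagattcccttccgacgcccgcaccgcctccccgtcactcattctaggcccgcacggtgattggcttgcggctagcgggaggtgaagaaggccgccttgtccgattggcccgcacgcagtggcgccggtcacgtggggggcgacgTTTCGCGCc

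MCM6 carried TTTGGCGC on the gene's strand at 152 and at 90 bases before its start, and each copy overlaps TTTCGCGC read on the other strand. In windows running from 250 bases before to 50 after the gene start, all 4 MCM genes with a window (MCM2, MCM3, MCM6 and MCM7) held at least 1 of the 3 E2F-type motifs. Among all members, 16 of 29 with a window (55.2%) held one, beside 902 of 27305 genes with a RefSeq window (3.30%). The 27305 are all genes with a window, a wider set than the 14355 gene names of the series. The share among the tested genes was not counted. TTTCCCGC was in 9 of the 29 (beside 1.98% of all genes), TTTGGCGC in 6 (20.7%, beside 0.795%) and TTTCGCGC in 5 (17.2%, beside 0.63%). The box CCAAT was in 19 members (65.5%), beside 39.7% of all genes. These are matches of letters on either strand, counted once per gene, and no binding or promoter activity was measured in this series.

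Library totals ran from 2034854 to 6759850 reads, with the CDH3-AS1 siRNA library the deeper in batch 1 and the control the deeper in batch 2. A gene with 3 coding reads stood between 0.473 and 1.63 CPM, where CPM sets a gene's coding reads against all coding reads of its library. All 10 melanocyte markers were read in every library, and their sum was 21660 and 31900 CPM with CDH3-AS1 siRNA, against 23400 and 40330 CPM with control siRNA in batches 1 and 2. The control library of batch 1 also held 3855 CPM over a list of 10 skeletal muscle genes and 496 CPM over a list of 6 fibroblast genes. The other libraries held at most 7.72 and 4.25 CPM. Nearly all of the fibroblast sum came from COL1A1 (379 CPM) and COL1A2 (111 CPM), while LUM and PDGFRB had 2.17 and 3.80 CPM. In that library DCN and COL3A1 had no reads, nor did TNNT3 and MYLPF of the muscle list. The part of these reads in the results was not tested, and values without that library are given for some of the members it moved. Other members also changed sign when a library was left out, such as MCM3, which then ran from -0.20 to 0.28 on the log2 scale. In bulk cells, fewer cells in S phase and less RNA per cell cannot be told apart.

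No change with the siRNA was called across the replication genes. None of the 31 members passed edgeR's quasi-likelihood test without a block (adjusted p under 0.05), where the background was 0% of 10469 genes. MCM6 was the single member with an unadjusted p under 0.05, a level reached by 225 genes (110 higher and 115 lower). The median log2 fold change, CDH3-AS1 siRNA over control siRNA, was -0.00 over the members and -0.03 over all tested genes, with 15 members above 0 and 16 below. Within batch 1 the members' median was -0.11 and within batch 2 it was 0.08, beside -0.03 and -0.08 for all genes. Of the 31 members, 8 were higher in both batches, 7 were lower in both and 16 changed direction. That left 48.4% with the same direction in both batches, beside 54.7% of all genes. The members' summed level was 3266 and 3386 CPM with CDH3-AS1 siRNA, against 3742 and 3280 CPM with control siRNA. Those sums overlap, with the highest among the controls. Without the control library of batch 1 no member was called and the members' median was 0.14.

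The same-numbered libraries share a batch, and with that replicate block in the model 170 genes were called. The lower calls were 0.697% of tested genes and held 1 member, MCM6, while the higher calls were 0.927% and held none. In 6 members both CDH3-AS1 siRNA libraries lay below both controls, namely MCM4, MCM5, MCM6, PCNA, LIG1 and RRM1, where 16.1% of all genes did so. In 3 members, CDC6, CDT1 and RRM2, both lay above, where 11.2% of all genes did so. Both counts are close to what those background shares give for 31 genes.

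**Figure D1:**
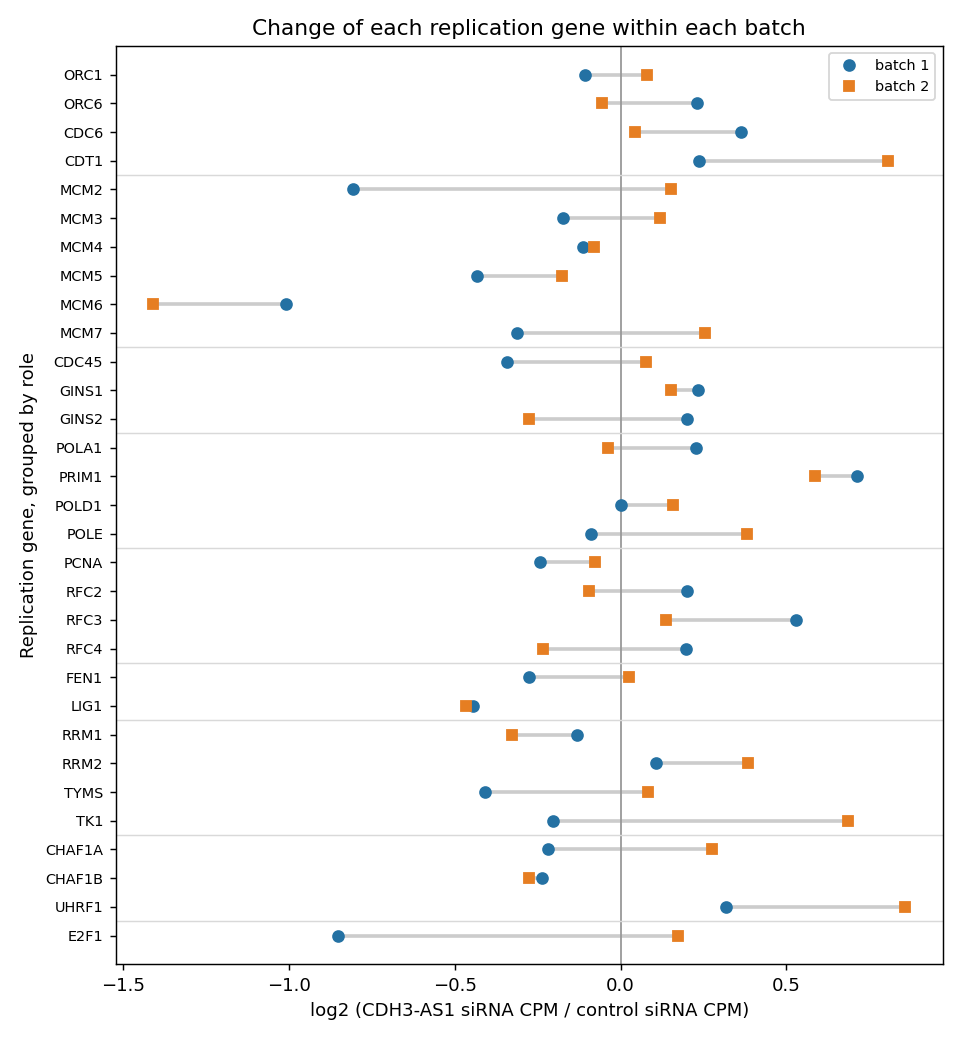
Log2 ratio of CPM, CDH3-AS1 siRNA over control siRNA, for each of the 31 replication genes (rows, grouped by role) within batch 1 (circles) and batch 2 (squares), with a line joining the batches. In 16 of the 31 genes the batches lie on opposite sides of 0, while MCM6 stands at -1.01 and -1.41.

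Beginning with licensing, CDT1, the loading factor that geminin holds in check, had 104 and 130.3 CPM with CDH3-AS1 siRNA, against 88.5 and 74.4 CPM with control siRNA in batches 1 and 2. Both CDH3-AS1 siRNA libraries lay above both controls. Its log2 fold change was 0.57 (SE 0.32; 0.24 in batch 1 and 0.81 in batch 2), with adjusted p = 1.00 in edgeR's quasi-likelihood test and 0.447 with the replicate block. CDC6, the ATPase that works beside CDT1, had 65.7 and 62.5 CPM with CDH3-AS1 siRNA, against 51.0 and 60.6 CPM with control siRNA. Its difference was small, at 0.24 (SE 0.32). ORC1 and ORC6, subunits of the origin recognition complex, stood at 0.03 (SE 0.35) and 0.10 (SE 0.37), and in both the batches went opposite ways.

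Among the helicase subunits MCM6 was far lower with CDH3-AS1 siRNA, and it was singled out with that already known, so its values are a description. MCM6 lies on chromosome 2 at 135839626 to 135876443 on GRCh38.p14. It had 50.4 and 55.2 CPM with CDH3-AS1 siRNA (320 and 144 reads), against 101 and 146 CPM with control siRNA (187 and 824 reads) in batches 1 and 2. The groups did not overlap, and the higher CDH3-AS1 siRNA library was well below the lower control. The MCM6 level was 49.7% of the control in batch 1 (95% exact interval of counting error alone, 41.3 to 59.8) and 37.7% in batch 2 (31.4 to 45.0). Group means were 52.8 ± 3.37 CPM with CDH3-AS1 siRNA and 124 ± 31.8 CPM with control siRNA (SD, n = 2 each).

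The log2 fold change of MCM6 was -1.19 (SE 0.34), with adjusted p = 1.00 in edgeR's quasi-likelihood test. Once the replicate block was added it was -1.17 (SE 0.28), and edgeR gave adjusted p = 0.00405. With 1 residual degree of freedom there, that p-value rests mainly on a spread pooled over the tested genes, not on that of MCM6 itself. The call was not shared by DESeq2 with the block (-1.15, adjusted p = 0.0884) or by limma on log2(RPKM + 1) with the block (-1.16, adjusted p = 0.243). Over 14 alternatives the log2 fold change of MCM6 ran from -1.41 to -0.88. MCM6 was picked as lower in both batches and its groups lie apart, so refits of the same libraries had to stay lower. Its log2 fold change was -1.41 without the control library of batch 1, which held the muscle reads, and -0.88 without the control library of batch 2. MCM6 has a single transcript in the deposited tables, so no split of reads between its isoforms enters these values.

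None of the other ring subunits was called with the siRNA, and their difference from MCM6 was not tested. MCM2 had 82.5 and 90.8 CPM with CDH3-AS1 siRNA, against 144 and 81.7 CPM with control siRNA, so only batch 1 had a lower value, at 57.2% of the control (49.2 to 66.5). MCM5 had 159 and 159 CPM with CDH3-AS1 siRNA, against 214 and 179 CPM with control siRNA, lower in both batches and without overlap, at -0.43 in batch 1 and -0.18 in batch 2 on the log2 scale. MCM4 had 194 and 199 CPM with CDH3-AS1 siRNA, against 210.0 and 210.0 CPM with control siRNA, the closest match between batches of any subunit. MCM3 and MCM7 overlapped between the groups. MCM3 had 263 and 231 CPM with CDH3-AS1 siRNA, against 296 and 213 CPM with control siRNA. MCM7 had 275 and 251 CPM with CDH3-AS1 siRNA, against 341 and 211 CPM with control siRNA. Their log2 fold changes were -0.33 (SE 0.37) for MCM2, -0.27 (SE 0.31) for MCM5, -0.05 (SE 0.31) for MCM4, -0.00 (SE 0.34) for MCM3 and -0.02 (SE 0.36) for MCM7. Without the control library of batch 1, MCM2 stood at 0.15 and MCM7 at 0.38, above the control.

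Set per length, as coding reads per kilobase of coding sequence scaled to the library total (RPKM), MCM7 was the highest subunit in all 4 libraries when a gene's coding reads were set over the length of its main transcript. With the deposited RPKM summed over transcripts, where short annotated fragments weigh more, MCM7 led only in the batch 2 CDH3-AS1 siRNA library, with 122 RPKM, against 114 for MCM4. In the batch 1 CDH3-AS1 siRNA library MCM4 then led MCM7, with 139 against 138 RPKM, and in the controls MCM5 led it, with 194 against 163 RPKM in batch 1 and 126 against 105 RPKM in batch 2. By main-transcript length MCM6 was the lowest in 3 of them, at 19.2 and 20.4 RPKM with CDH3-AS1 siRNA in batches 1 and 2, against 37.3 RPKM with control siRNA in batch 1. In the control library of batch 2 MCM6 stood at 55.7 RPKM and MCM2 was the lowest, at 28.3 RPKM. The summed RPKM gave the same lowest subunit in each library. The highest subunit exceeded the lowest 7.32- and 6.11-fold with CDH3-AS1 siRNA, against 4.51- and 3.81-fold with control siRNA. Uneven footprint levels between subunits were thus present with either siRNA.

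Relative to the geometric mean of the other 5 subunits, MCM6 stood at 25.6% and 28.6% with CDH3-AS1 siRNA, against 40.0% and 78.8% with control siRNA in batches 1 and 2. The controls differ from each other here more than the CDH3-AS1 siRNA libraries do. On the log2 scale the difference in this ratio was -0.64 in batch 1 and -1.46 in batch 2. Each of the other subunits was set against the 4 that remain without MCM6. Their differences ran from -0.55 (MCM2) to 0.32 (MCM4) in batch 1 and from -0.29 (MCM5) to 0.25 (MCM7) in batch 2. In batch 1 the MCM6 difference lies nearest that of MCM2, but their references differ. The mean set beside MCM6 includes MCM2, which was itself at 57.2% of the control in batch 1. In batch 2 the MCM6 difference is larger in size than that of every other subunit. Of the summed MCM level per length, MCM6 took 4.34% and 4.95% with CDH3-AS1 siRNA, against 6.88% and 12.6% with control siRNA.

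**Figure D2:**
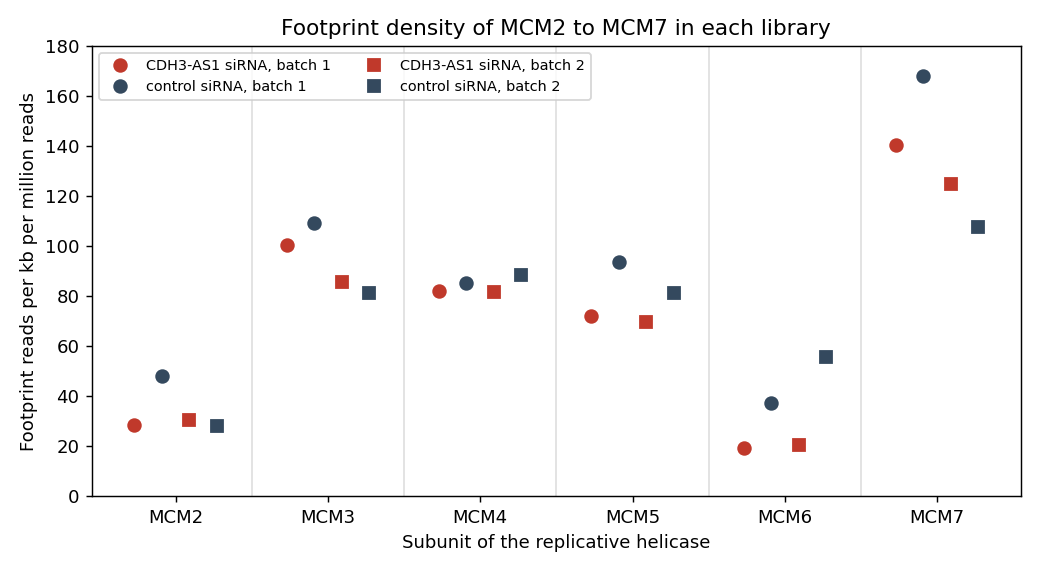
Ribosome footprint level per length (RPKM, linear axis from 0) of MCM2 to MCM7 in each of the 4 libraries, red for CDH3-AS1 siRNA and dark blue for control siRNA, circles for batch 1 and squares for batch 2. MCM6 lies at 19.2 and 20.4 RPKM in the CDH3-AS1 siRNA libraries, below its 37.3 and 55.7 RPKM in the controls, while MCM7 is highest in every library on this scale but not with summed deposited RPKM.

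None of the proteins that turn the ring into a helicase was called. CDC45 stood at -0.09 (SE 0.35), and the GINS subunits GINS1 and GINS2 at 0.25 (SE 0.39) and -0.06 (SE 0.41). GINS1 was higher in both batches by little, with 23.6 and 19.5 CPM with CDH3-AS1 siRNA, against 20.1 and 17.6 CPM with control siRNA. It had 37 reads in its shallowest library, and with its main transcript alone the GINS1 difference was -0.27. The GINS2 difference was -0.36 without the control library of batch 1 and 0.42 without the control library of batch 2.

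Polymerase genes were likewise uncalled. POLD1 and POLE, the catalytic subunits of the polymerases delta and epsilon that copy the lagging and leading strands, stood at 0.12 (SE 0.31) and 0.19 (SE 0.31), and POLA1, of the polymerase that extends primers, at 0.10 (SE 0.39). POLA1 stood at -0.16 without the control library of batch 1 and at 0.50 without that of batch 2. PRIM1, the catalytic subunit of primase, had 15.1 and 24.5 CPM with CDH3-AS1 siRNA, against 9.23 and 16.3 CPM with control siRNA. It was higher in each batch (0.71 and 0.59 on the log2 scale), but the groups overlapped and the log2 fold change of 0.63 (SE 0.50) was not called. The control library of batch 1 held 17 reads of PRIM1, and the difference was 0.32 without it and 1.15 without the control library of batch 2.

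PCNA, the clamp, was the most abundant member and one of the steadiest. It had 440.1 and 443 CPM with CDH3-AS1 siRNA, against 520.5 and 467 CPM with control siRNA, slightly lower in both batches without overlap. Its log2 fold change was -0.12 (SE 0.32). The clamp loader subunits RFC2, RFC3 and RFC4 stood at 0.07 (SE 0.35), 0.32 (SE 0.39) and -0.02 (SE 0.39). RFC3 had 56.4 and 72.8 CPM with CDH3-AS1 siRNA, against 39.1 and 66.3 CPM with control siRNA, so it was higher in both batches while the groups overlapped. The RFC3 difference was 0.02 without the control library of batch 1 and 0.79 without the control library of batch 2.

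LIG1, the ligase that joins Okazaki fragments, had 63.0 and 65.1 CPM with CDH3-AS1 siRNA, against 85.8 and 89.9 CPM with control siRNA. The groups did not overlap and the batches gave nearly the same difference, -0.44 and -0.46. After MCM6 it was the lowest member at -0.41 (SE 0.31), with adjusted p = 1.00 in edgeR's quasi-likelihood test and 0.718 with the replicate block. FEN1, the nuclease that trims the flaps LIG1 seals, did not follow it: FEN1 had 165 and 131 CPM with CDH3-AS1 siRNA, against 199.7 and 128 CPM with control siRNA, a log2 fold change of -0.10 (SE 0.36) that was 0.27 without the control library of batch 1.

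In nucleotide supply, the subunits of ribonucleotide reductase went apart without either being called. RRM1, the large subunit, had 162 and 153 CPM with CDH3-AS1 siRNA, against 177 and 191 CPM with control siRNA, a log2 fold change of -0.19 (SE 0.31). RRM2, the small subunit that limits the enzyme in S phase, had 177 and 212 CPM with CDH3-AS1 siRNA, against 164 and 162 CPM with control siRNA, or 0.29 (SE 0.32). Per length, RRM1 over RRM2 was 0.450 and 0.354 with CDH3-AS1 siRNA, against 0.531 and 0.580 with control siRNA. This ratio was lower in both CDH3-AS1 siRNA libraries than in either control, and it was chosen after the values were seen. TYMS, which makes thymidylate, had 229 and 278 CPM with CDH3-AS1 siRNA, against 304 and 263 CPM with control siRNA. TK1, the salvage kinase for thymidine, had 138 and 153 CPM with CDH3-AS1 siRNA, against 158 and 95.1 CPM with control siRNA. In TYMS and TK1 the batches went opposite ways, -0.41 and 0.08 for TYMS and -0.20 and 0.69 for TK1. TK1 stood at 0.25 (SE 0.36) over both batches, 0.68 without the control library of batch 1 and -0.06 without the control library of batch 2.

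Of the genes for chromatin behind the fork, UHRF1, which brings the maintenance methyltransferase to new DNA, was the higher one. It had 63.6 and 48.3 CPM with CDH3-AS1 siRNA, against 51.0 and 26.7 CPM with control siRNA, higher within each batch while the groups overlapped. Its log2 fold change was 0.59 (SE 0.42), with adjusted p = 1.00 in edgeR's quasi-likelihood test and 0.468 with the replicate block. It was 1.14 without the control library of batch 1 and 0.20 without the control library of batch 2. CHAF1A and CHAF1B, subunits of the histone chaperone CAF-1, stood at 0.08 (SE 0.32) and -0.20 (SE 0.37). E2F1, the transcription factor of the set, had 16.2 and 17.6 CPM with CDH3-AS1 siRNA, against 29.3 and 15.6 CPM with control siRNA. The single high value was the control of batch 1, and its log2 fold change was -0.34 (SE 0.46), with -0.85 in batch 1 and 0.17 in batch 2. Without that library it was 0.17.

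The members spanned a wide range of footprint levels per length. PCNA averaged 549 ± 38.2 RPKM over the 4 libraries (SD), TYMS 263 ± 26.5, TK1 178 ± 35.2 and RRM2 141 ± 17.3. MCM7 (135 ± 25.7) and FEN1 (126 ± 25.9) came next, followed by MCM3 (94.1 ± 13.0), MCM4 (84.3 ± 3.28), MCM5 (79.1 ± 10.8) and RRM1 (66.4 ± 7.13). The order ran on through RFC3, GINS2, RFC2, CDT1, ORC6, MCM2, MCM6, CDC6, GINS1, CHAF1A, CDC45, LIG1, RFC4, POLD1 and CHAF1B, from 59.1 to 22.5 RPKM. UHRF1, E2F1, POLE, PRIM1, ORC1 and POLA1 closed it, from 18.4 down to 8.76 ± 1.94 RPKM. Of 30 neighbouring pairs only 2, PCNA over TYMS and TYMS over TK1, had ranges that did not overlap across the libraries, so the order of other neighbours is not settled by these samples. MCM6 had the widest spread relative to its level, 33.2 ± 17.2 RPKM.

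**Figure D3:**
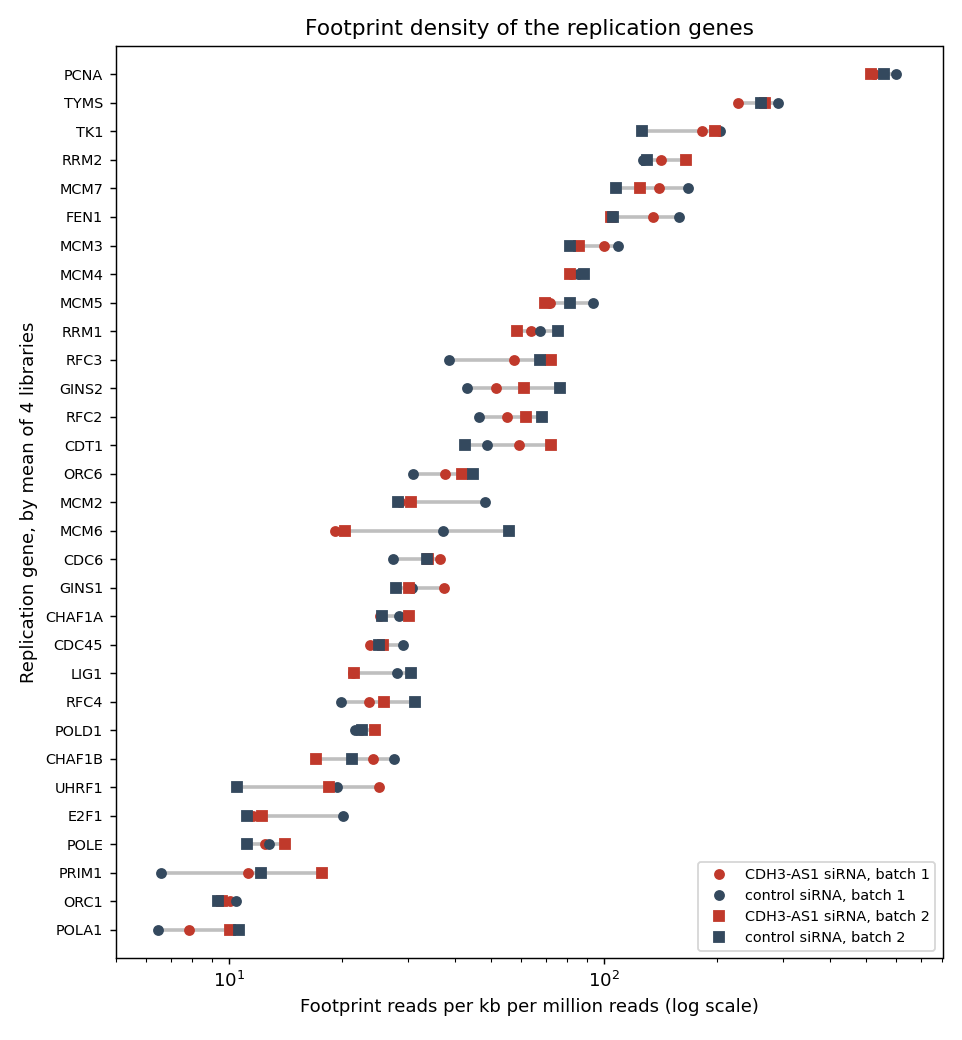
Ribosome footprint level per length (RPKM, log axis) of the 31 replication genes in each library, ordered by their mean over 4 libraries, red for CDH3-AS1 siRNA and dark blue for control siRNA, circles for batch 1 and squares for batch 2. PCNA leads at a mean of 549 RPKM and POLA1 is lowest at 8.76 RPKM. The spread between libraries differs by gene: ORC1 ran from 9.35 to 10.5 RPKM and MCM6 from 19.2 to 55.7 RPKM.

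Each batch held both siRNAs, so the batches could be compared with the siRNA in the model. Batch 2 over batch 1, 9.52% of tested genes were called higher and 6.3% lower, and none of the 31 members was called in either direction. At an unadjusted p under 0.05 there were 2 members, RFC3 (log2 fold change 0.58, SE 0.30) and UHRF1 (-0.63, SE 0.31). The members' median was 0.04, beside 0.01 over all genes. PRIM1 stood at 0.78 (SE 0.41, adjusted p = 0.199 by edgeR's quasi-likelihood test), and it was called when only its main transcript was counted (1.75, adjusted p = 0.0121). Its main transcript ENST00000706566 had 44 and 68 reads in the batch 2 libraries, against 35 and 6 in those of batch 1, in each pair CDH3-AS1 siRNA before control. A second transcript, ENST00000550770, had 14 and 8 reads in batch 2, against 53 and 7 in batch 1. Reads that fit several transcripts can have been assigned to either one, so the split is uncertain.

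Footprints in the 5′ UTR, where ribosomes scan and may translate short upstream frames, were compared between the batches. Of 27 members with at least 50 reads of 5′ UTR and coding sequence in every library, TYMS and E2F1 had a share at least 5 points higher in both batch 2 libraries than in both batch 1 libraries. That is 2 of 27, close to the 6.71% of 6121 genes that did so, and none was 5 points lower, where 1.6% of genes were. In TYMS they made up 9.48% of 5′ UTR and coding reads with CDH3-AS1 siRNA in batch 2 (95% exact interval 7.54 to 11.7) and 9.16% with control siRNA (7.80 to 10.7). In batch 1 the TYMS shares were 0.206% with CDH3-AS1 siRNA (0.0425 to 0.601) and 0.709% with control siRNA (0.194 to 1.81). The intervals of the batches do not meet, while the siRNAs lie close together within each batch. E2F1 had 11.5% with CDH3-AS1 siRNA and 10.2% with control siRNA in batch 2. In batch 1 E2F1 had 0.962% with CDH3-AS1 siRNA and 0 of 54 reads with control siRNA, which allows a share of up to 5.56%, taking 3 reads as the limit of a count of 0 (exact upper bound 6.60%). The E2F1 shares rest on few reads, at most 10 in the 5′ UTR of any library.

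Over all genes the share was 7.21% with CDH3-AS1 siRNA and 5.13% with control siRNA in batch 2, and 3.90% and 6.19% in batch 1. Both TYMS shares lie above the whole library's in batch 2 and below it in batch 1, outside their counting intervals. PCNA had a different pattern, with 15.0% with control siRNA in batch 1 (13.0 to 17.2), where the other libraries ran from 4.12% to 7.82%. RFC4 was likewise high there, with 22.6% (12 of 53 reads) against 1.32% to 4.14% elsewhere, and RRM1 with 10.2% against 3.92% to 6.20%, although these reads of RFC4 and RRM1 lie on transcripts other than the main one. That library is the one with the muscle reads, and their part in these shares was not tested. CDC6 had 4.80% (2.99 to 7.24) with CDH3-AS1 siRNA and 2.08% (0.253 to 7.32) with control siRNA in batch 1. In batch 2 CDC6 had 8.94% (5.20 to 14.1) with CDH3-AS1 siRNA and 2.57% (1.18 to 4.83) with control siRNA, so the intervals of the siRNAs meet in batch 1 and not in batch 2. Those batch 2 shares rest on 16 and 9 reads in the 5′ UTR, and the share over all genes was also higher with CDH3-AS1 siRNA there. CDC6 is named after its shares were seen, and how many genes have separate intervals was not counted. Without known strand these reads cannot be assigned to one strand, and intervals cover counting error only.

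**Figure D4:**
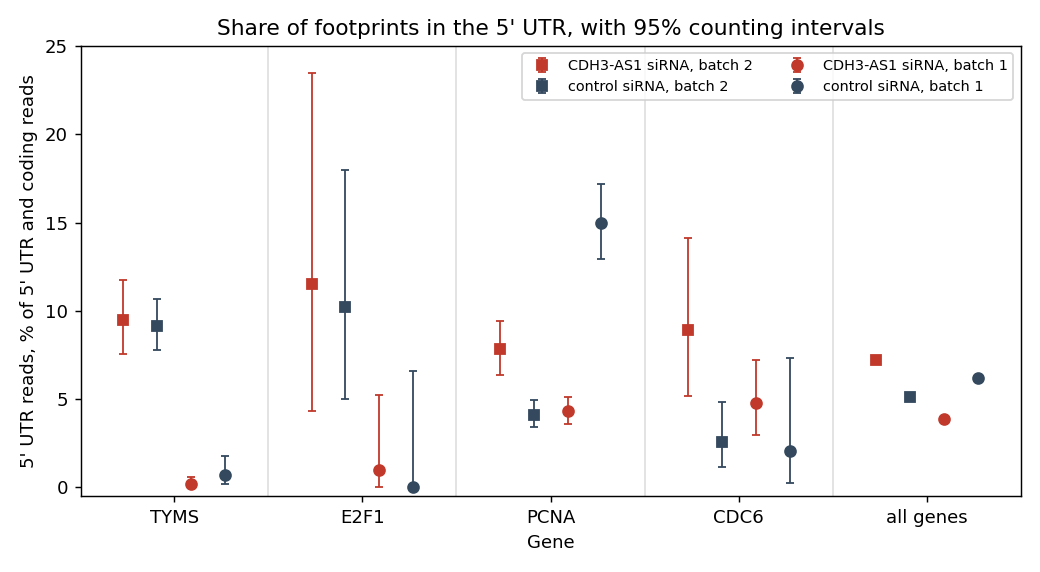
Share of reads in the 5′ UTR, in percent of 5′ UTR and coding reads, for TYMS, E2F1, PCNA, CDC6 and all genes, with batch 2 (squares) left of batch 1 (circles), red for CDH3-AS1 siRNA, dark blue for control siRNA and bars for 95% exact intervals. TYMS lies above 9% in batch 2 and below 1% in batch 1, and the batch 1 control of PCNA stands at 15.0%.

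Other genes of the same processes gave no call with the siRNA, with or without the replicate block. None of 40 further fork and origin proteins passed, with a median log2 fold change of -0.16, beside -0.03 for all genes. Of the 40, 9 were above 0 and 31 below, beside 4892 above and 5577 below among all 10469 tested genes, a difference that was not tested. RNASEH2A, DSCC1 and DBF4 ranked first by p among those lower or higher in both batches. RNASEH2A of the RNA:DNA nuclease stood at -0.54 (SE 0.31) and DSCC1 of an alternative clamp loader at -0.69 (SE 0.50). DBF4, the activator of the origin kinase CDC7, stood at -0.69 (SE 0.55). In the control library of batch 1, DSCC1 had 17 reads and DBF4 had 16. None of 23 tested genes of nucleotide synthesis passed (median -0.17). UMPS of pyrimidine synthesis stood at -0.59 (SE 0.35) and IMPDH2 of guanine nucleotide synthesis at -0.44 (SE 0.32). SAMHD1, which degrades dNTPs, stood at 0.50 (SE 0.37). None of 12 genes of chromatin assembly and histone supply passed (median -0.13), with TONSL at 0.41 (SE 0.40) and HELLS at -0.50 (SE 0.50). HAT1 stood at -0.83 (SE 0.88), with 4 reads in the control library of batch 1. None of 14 E2F and RB family genes passed (median -0.07), with RBL2 at -0.85 (SE 0.41) and TFDP2 at -0.51 (SE 0.39). E2F5 stood at 0.97 (SE 0.54), with 11 reads in the control library of batch 1.

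Between the batches, some of these other genes were called, and their difference from the members was not tested. Higher in batch 2 were 5 of 40 fork and origin proteins, beside 9.52% of all genes. These were GMNN, the inhibitor of CDT1, POLE3 (1.31), TIPIN (1.40), RFC1 (0.79) and CLSPN (0.78), and none of the 40 was lower. TIPIN had only 7 reads in the control library of batch 1. It went from 9.77 to 14.9 CPM with CDH3-AS1 siRNA and from 3.80 to 21.9 CPM with control siRNA. GMNN had 98.5 CPM with CDH3-AS1 siRNA and 98.1 CPM with control siRNA in batch 2, against 43.8 and 27.7 CPM in batch 1. CDT1, the factor it holds, changed by 0.07 (SE 0.27) between the batches. In nucleotide synthesis DUT (0.82), DCK (1.05) and PPAT (1.13) were higher, 3 of 23 beside the same 9.52%, and SHMT2 (-0.85) was lower, 1 of 23 beside 6.3% of all genes. In chromatin assembly and histone supply NPAT (0.84), HELLS (1.01) and SUPT16H (0.77) were higher, 3 of 12 beside 9.52% of all genes, and no E2F or RB family gene was called. The genes called between batches are named after their values were seen.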

How the data were processed

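Ribosome footprints of 4 libraries were measured, and the authors deposited read counts and RPKM for the 5′ UTR, coding sequence, 3′ UTR and whole of each of 38455 transcripts, per the file headers. Build hg38 and DESeq2 are named per the submitters' processing notes. Not given in the sources used here are the aligner, counter, annotation release, read filters and strand. Checked on the values, the deposited RPKM is scaled to all reads of the library.

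Coding counts were summed by gene name, of which 13900 matched the RefSeq table. Filtering by filterByExpr (minimum count 10, minimum total 15) left 10469 genes, tested with edgeR 4.0.16 in R 4.3.3 (TMM scaling, quasi-likelihood test, Benjamini-Hochberg adjustment over all tested genes, threshold 0.05) with no block. The fit was also run on simulated data with a dispersion set in advance, and no result here rests on that run. Labels give same-numbered libraries a shared batch, and their deviations from the group means correlated (r = 0.598), so the numbers pair the libraries and the block is given where it changes a call. It lowered the biological coefficient of variation to 20.2%, against 35.9% without it, and left 1 residual degree of freedom, against 2. Replicates differed by more than sampling noise (chi-square per degree of freedom 36.4 with CDH3-AS1 siRNA and 44.0 with control siRNA). DESeq2 1.42.0 and limma 3.58.1 on log2 of the deposited RPKM plus 1 were alternatives. Levels per length were all coding reads of a gene over the coding length of its main transcript, chosen after seeing the data because short annotated fragments inflate summed RPKM.

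The members and lists were chosen with earlier results of these data known. All members are named. From each other list the rule took called genes or, with fewer than 3, those of smallest p that went the same way in both batches. Fold changes are CDH3-AS1 siRNA over control siRNA. Shares have 95% Clopper-Pearson intervals, and reads are not independent molecules, so intervals and the 3-read floor cover counting error only.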

Additional observations from a re-analysis of the deposited data

How the results depend on the processing

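Of 428 member values under 14 alternatives of the siRNA comparison, 416 kept their side of the threshold and moved by less than 1 SE, 11 moved further (10 on leaving out a library) and 1, MCM6 with the replicate block, became called. In 18 members the sign turned under some alternative and in 13 it did not. MCM6 is among the latter, and it was picked for being lower in both batches. With the replicate block 170 genes and 1 member were called, against 0 and 0 without it. DESeq2 called 2 genes, DESeq2 with the replicate block 50, limma with the replicate block 7 and edgeR with no filter on low counts 52, none of them a member. Leaving out each library gave 0 to 73 genes, with 73 without the control library of batch 2, and the members' median ran from -0.030 to 0.14, where 0.14 is the value without the control library of batch 1. Between batches, 1657 genes were called, against 658 by DESeq2, 766 by limma and 538 without the siRNA in the model. Of 242 member values there, 238 held, 3 moved and 1 was called, PRIM1 by its main transcript. The cause was not tested. The level per length moved by more than 1 SD for 11 members with summed RPKM and for 8 with the main transcript alone. Of 124 shares of 5′ UTR reads, 31 left their interval with the main transcript alone, in genes such as RRM1 and RFC4 whose 5′ UTR reads lie on other transcripts. Among the members, counts were lowest for PRIM1, with 17 reads in the control library of batch 1, and GINS1, with 37 there.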
